A study of Mus musculus with 64 samples.

Results

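A fixed set of 38 neuronal and synaptic genes was followed through microglia preparations from mouse hippocampus and frontal cortex. The genes were taken by symbol from a table of 49671 genes, and all 38 were found. They comprise 13 genes of presynaptic vesicle release, 13 of excitatory synapses, 4 of inhibitory synapses and 8 of the neuronal cell body and axon. The 64 libraries came from adult male C57BL6/N mice (C57BL/6 in the labels) and form 16 groups of 4, one for each combination of region (hippocampus or frontal cortex), phase (Day or Night) and condition (Soci, Cogn, Ctr0 or Ctr1). The labels explain neither the condition names nor which clock hours the phase names stand for, and both are used as they stand. The paper describes microglia taken in the light phase and in the dark phase, from mice kept under a reversed light-dark cycle. Cells were released by grinding the tissue in the cold, cleared of myelin on percoll and captured with magnetic beads against CD11b, a surface protein of microglia and other myeloid cells. RNA was depleted of ribosomal RNA and sequenced as total RNA, so nuclear and unspliced transcripts entered the libraries too. The labels number the replicates without saying that they were separate animals, so that p-values measure the spread between these libraries. In bulk samples, a smaller amount of neuronal material and less RNA of a gene in the same material cannot be told apart.

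Chemical synapses pass a signal by fusing transmitter-filled vesicles with the presynaptic membrane. A SNARE complex that holds Snap25 and Vamp2 drives fusion, synaptotagmin senses calcium, complexins clamp and trigger the complex, and proteins of the active zone such as Bassoon, Piccolo and Rims1 place the vesicles. Excitatory synapses load glutamate and answer through NMDA and AMPA receptors held in a postsynaptic scaffold, whereas inhibitory synapses use GABA, made by the glutamate decarboxylases Gad1 and Gad2 and loaded by Slc32a1. Microglia do not build synapses but touch, prune and engulf parts of them, and preparations of microglia can carry neuronal fragments along.

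Total counts per library ran from 10.2 M to 84.5 M, with a mean of 22.4 M ± 16.4 M in hippocampus and 14.7 M ± 3.93 M in frontal cortex (SD, n = 32 each). A floor of 3 counts was worth between 0.031 and 0.313 CPM (counts per 1000000 counts of the library, scaled by TMM), and such floors cover counting error only. The cell type label was checked against its markers: the fractalkine receptor Cx3cr1 averaged 598 and the purinergic receptor P2ry12 averaged 703 RPKM (CPM per kilobase of exon), and neither was at 0 in any library. The summed level of 16 microglial genes ran from 14193 to 29914 CPM. The 38 neuronal genes together ran from 1165 to 5925 CPM, and Meg3 alone supplied more of this than all other members together in every group except Night Cogn and Night Ctr0 of frontal cortex. No pair of replicates agreed within counting noise, as chi-square divided by its degrees of freedom was at least 7.65 in all 96 replicate pairs.

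The promoters of 5 members are shown because their genes stood at opposite ends of the co-variation described further on. Grin1, Dnm1 and Meg3 varied together across libraries, whereas Hpcal4 and Cplx1 varied with each other and changed more between Day and Night. Each line holds the 250 bases before the RefSeq start, read 5′ to 3′ on the strand of the gene (build GRCm38.p6), and capitals mark matches to an E-box (CACGTG) or a cAMP response element (TGACGTCA). The windows lie at chr2:25319188-25319437 (Grin1, minus strand), chr2:32353330-32353579 (Dnm1, minus strand), chr12:109540746-109540995 (Meg3, plus strand), chr4:123183254-123183503 (Hpcal4, plus strand) and chr5:108550028-108550277 (Cplx1, minus strand).
Grin1: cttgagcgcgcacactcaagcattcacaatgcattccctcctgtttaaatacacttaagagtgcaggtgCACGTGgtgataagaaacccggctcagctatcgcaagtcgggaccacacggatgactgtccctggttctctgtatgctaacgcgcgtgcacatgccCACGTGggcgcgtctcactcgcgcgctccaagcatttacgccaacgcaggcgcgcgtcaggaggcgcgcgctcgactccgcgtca
Dnm1: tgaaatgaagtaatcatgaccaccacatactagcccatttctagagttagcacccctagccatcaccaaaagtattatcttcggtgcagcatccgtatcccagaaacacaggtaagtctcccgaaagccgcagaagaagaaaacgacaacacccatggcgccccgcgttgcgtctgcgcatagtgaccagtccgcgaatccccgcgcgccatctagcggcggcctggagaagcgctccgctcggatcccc
Meg3: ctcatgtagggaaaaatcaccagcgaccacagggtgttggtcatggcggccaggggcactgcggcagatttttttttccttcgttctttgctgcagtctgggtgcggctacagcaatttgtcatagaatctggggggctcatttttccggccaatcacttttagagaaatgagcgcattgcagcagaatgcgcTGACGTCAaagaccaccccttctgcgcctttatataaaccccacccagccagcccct
Hpcal4: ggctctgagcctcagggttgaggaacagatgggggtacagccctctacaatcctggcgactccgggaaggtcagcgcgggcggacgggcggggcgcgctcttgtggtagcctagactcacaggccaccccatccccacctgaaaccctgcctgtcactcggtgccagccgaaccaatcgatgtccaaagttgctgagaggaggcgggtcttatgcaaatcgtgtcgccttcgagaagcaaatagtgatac
Cplx1: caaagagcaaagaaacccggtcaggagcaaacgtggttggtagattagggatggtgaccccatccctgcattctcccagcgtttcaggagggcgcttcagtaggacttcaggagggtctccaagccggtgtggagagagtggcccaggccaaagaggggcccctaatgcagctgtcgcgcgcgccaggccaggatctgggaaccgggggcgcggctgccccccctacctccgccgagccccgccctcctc
The Grin1 window held 2 E-boxes, 181 and 85 bases before the start, and the Meg3 window held 1 cAMP response element, 57 bases before it. These windows held 27 (Grin1), 20 (Dnm1), 10 (Meg3), 16 (Hpcal4) and 15 (Cplx1) CpG dinucleotides. Where a gene had several windows, those whose end matched an annotated transcript came first, and then the one with most motif matches. That choice favours motif content in the windows shown. The Hpcal4 window lies inside the annotated gene, which starts at 123183227.

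The same letters were searched on both strands in the 39 RefSeq windows of 27 members and in all 32851 windows. An E-box, the element bound by the core clock activators, was found in 2 member windows (5.13%), those of Grin1 and Sv2b, against 6.02% of all windows. A cAMP response element was found in 2 member windows (5.13%), those of Meg3 and Syn1, against 1.55% of all. A D-box (TTATGTAA), bound by clock output factors, was found in 0 member windows, against 0.819% of all. These matches describe letters in a window and not bound sites.

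Levels per length spanned a wide range among the members. Meg3, an imprinted long non-coding RNA that is retained in neuronal nuclei, was highest in both regions, with 106 ± 44.7 RPKM in hippocampus and 73.2 ± 29.6 in frontal cortex (SD, n = 32 each). In hippocampus Rims1 (20.8 ± 6.82 RPKM), the endocytic GTPase Dnm1 (19.2 ± 7.96) and the kinase subunit Camk2a (18.3 ± 12.3) followed, and these did not differ beyond their spread. In frontal cortex the same genes came next, as Camk2a (19.0 ± 15 RPKM), Rims1 (16.9 ± 5.61) and Dnm1 (13.7 ± 6.47). The genes of inhibitory synapses lay near the bottom, with Gad1 at 0.484 ± 0.199 RPKM in hippocampus and 1.16 ± 0.701 in frontal cortex. Gad2 lay lower still, at 0.283 ± 0.123 RPKM in hippocampus and 0.57 ± 0.319 in frontal cortex. Slc17a6, the vesicular glutamate transporter of subcortical neurons, was lowest in both regions and had 415 counts in all 64 libraries. It was at or under the floor of 3 counts in 8 hippocampal and 18 cortical libraries and did not pass the filter on low counts in the comparisons of phases and regions, which left 37 members to test. In the comparison of conditions in hippocampus all 38 passed it. The vesicular transporter of cortical and hippocampal neurons, Slc17a7, stood at 6.15 ± 2.46 RPKM in hippocampus and 5.11 ± 2.41 in frontal cortex.

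Several members share transcribed bases with another gene, and the strand setting of the counting was not stated. Nefl and Nefm, which encode the light and medium neurofilament subunits, overlap each other on opposite strands by 1108 bases. Grin1 overlaps Grin1os by 1307 bases, and Meg3 contains Mir770 and Mir1906-1. Reads of these pairs may be shared.

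The first question was whether the neuronal genes differed between Day and Night in frontal cortex. There, 23 of the 37 tested members were lower by Day and 0 were higher by edgeR's quasi-likelihood test at an adjusted p under 0.05, with 41.8% of all 14975 genes called (20.6% higher and 21.3% lower). The log2 change from Night to Day was negative for 36 members, with a median of −0.58 against −0.02 over all genes tested. By role, 10 of 13 presynaptic, 6 of 12 excitatory, 3 of 4 inhibitory and 4 of 8 cell body genes passed the threshold.

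**Figure D1:**
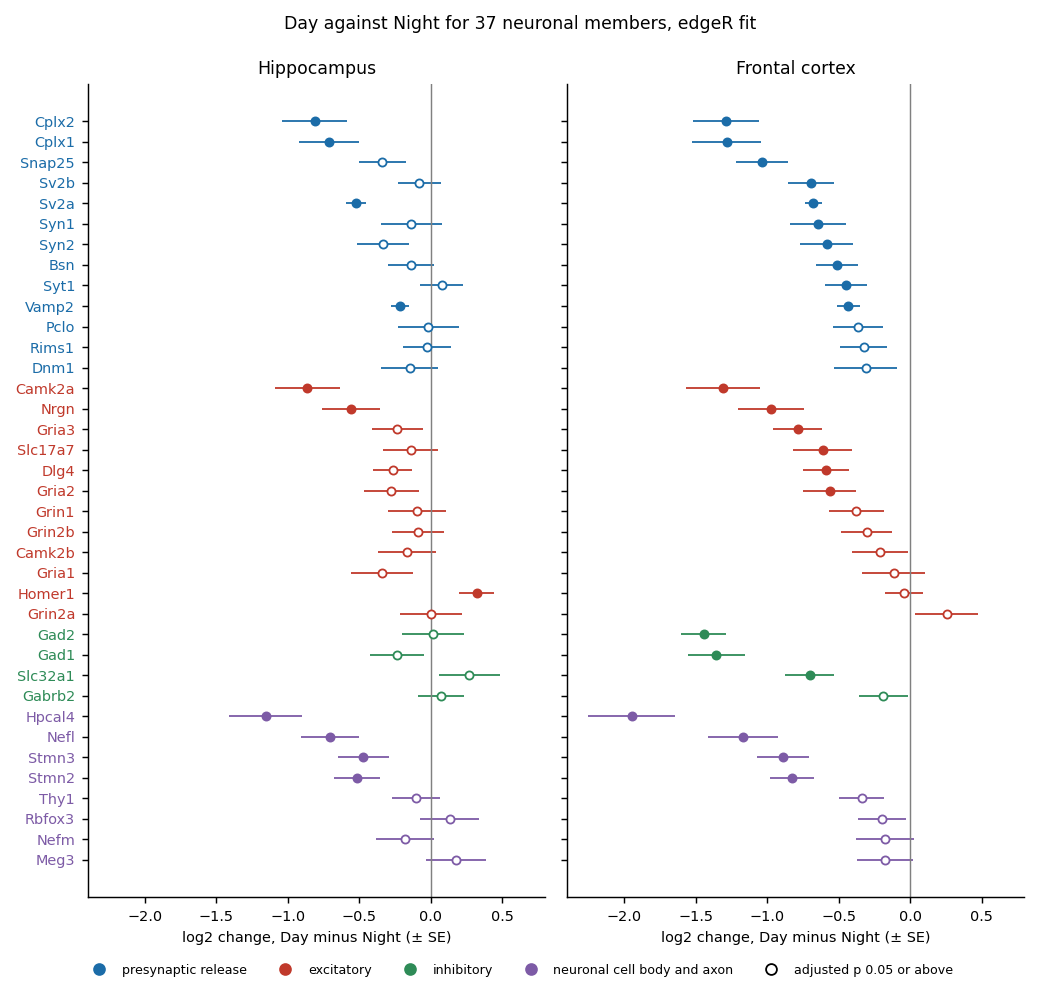
Log2 change from Night to Day (points, with bars of 1 SE; x axis) of the 37 tested members in hippocampus and frontal cortex, ordered by role. Filled points passed an adjusted p of 0.05, and in frontal cortex 36 of the 37 points lie below 0.

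Among presynaptic genes of frontal cortex, the vesicle glycoprotein Sv2a had the lowest p. Its Day libraries held 15.4, 18.5 and 23.2 CPM (lowest, median and highest of 16), and its Night libraries 23.3, 28.7 and 39.6 CPM. The ranges did not overlap, all 16 Night libraries standing above the highest Day library. The log2 change was −0.68 ± 0.06 (SE, n = 16 each, edgeR adjusted p = 2.23e-10). Snap25, the SNARE protein of the presynaptic membrane, held 3.16, 5.29 and 6.84 CPM by Day and 3.51, 10.3 and 20 CPM by Night. All 16 Day libraries were under the Night median and 11 Night libraries were above the highest Day library, with a log2 change of −1.04 ± 0.18 (adjusted p = 4.35e-05). Both complexins fell, Cplx1 by 1.28 ± 0.24 and Cplx2 by 1.29 ± 0.23 on the log2 scale. Vamp2, Syn1, Syn2, Sv2b, Bsn and Syt1 also passed, with log2 changes between −0.69 (Sv2b) and −0.43 (Vamp2). The calls of Syn1, Syn2 and Bsn were lost without replicate 2 and that of Syt1 without replicate 2 or 3 (largest adjusted p = 0.126). Rims1 (−0.32 ± 0.16), Dnm1 (−0.31 ± 0.22) and Pclo (−0.36 ± 0.17) did not pass. Rims1 held 55.1, 96.5 and 221 CPM by Day and 68.8, 137 and 184 CPM by Night, and Dnm1 held 28.3, 50.6 and 180 against 43.6, 74.9 and 142 CPM. In both, 0 Night libraries were above the highest Day library.

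Among excitatory genes of frontal cortex, Camk2a, the alpha subunit of the calcium and calmodulin kinase of the postsynaptic density, held 38.3, 82.1 and 143 CPM by Day and 55.7, 175 and 510 CPM by Night. All 16 Day libraries were under the Night median, and 10 Night libraries exceeded the highest Day library (log2 change −1.31 ± 0.26, adjusted p = 0.000167). Gria3, an AMPA receptor subunit, held 3.97, 5.98 and 12.2 CPM by Day and 6.82, 10.1 and 20.1 by Night (−0.79 ± 0.17, adjusted p = 0.000422). Its ranges overlapped, with 11 Day libraries under the lowest Night library. Nrgn, which binds calmodulin in dendrites, changed by −0.97 ± 0.23, and the transporter Slc17a7, the scaffold gene Dlg4 and the AMPA receptor gene Gria2 by −0.61, −0.59 and −0.56. The calls of Slc17a7 and Gria2 were lost without replicate 2 or 3, and that of Slc17a7 also without Night Ctr0 replicate 4 and Night Cogn replicate 1 together (largest adjusted p = 0.109). The NMDA receptor genes did not pass: Grin1 was at −0.38 ± 0.19, Grin2b at −0.30 ± 0.18 and Grin2a at 0.26 ± 0.22. Camk2b, the beta subunit of the same kinase, held 42.7, 59.6 and 214 CPM by Day and 57.1, 82.8 and 148 by Night and did not pass either (−0.21 ± 0.20, adjusted p = 0.404). Gria1 (−0.12 ± 0.22) and the scaffold gene Homer1 (−0.04 ± 0.14) likewise stayed under the threshold.

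The genes of GABA synthesis, Gad2 and Gad1, had the lowest p of the members of frontal cortex after Sv2a. Gad2 held 0.872, 1.69 and 2.78 CPM by Day and 2.39, 4.65 and 8.39 CPM by Night, with 15 of 16 Night libraries above the highest Day library (−1.44 ± 0.16, adjusted p = 3.47e-08). Gad1 held 1.60, 4.77 and 8.94 CPM by Day and 6.58, 11.3 and 24.5 CPM by Night, with 12 Night libraries above the highest Day library (−1.36 ± 0.20, adjusted p = 4e-06). Slc32a1, the vesicular GABA transporter, held 0.922, 1.66 and 2.58 against 0.946, 2.7 and 4.30 CPM, and its ranges overlapped more (−0.70 ± 0.17, adjusted p = 0.00168). These levels are low but above the floor, since every library held at least 14 counts of each. Gabrb2, a subunit of the GABA-A receptor on the receiving cell, held 0.913, 2.10 and 4.00 CPM by Day and 1.34, 2.45 and 3.44 by Night, and did not pass (−0.19 ± 0.17, adjusted p = 0.391).

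Of the genes of cell body and axon, Hpcal4, a neuronal calcium sensor, showed the largest log2 change among the tested members in frontal cortex. It held 7.36, 13 and 19.3 CPM by Day and 8.14, 38.6 and 148 CPM by Night, and 12 Night libraries were above the highest Day library (−1.95 ± 0.30, adjusted p = 7.43e-06). Stmn2, a microtubule regulator of growing axons, held 1.83, 3.17 and 5.63 CPM by Day and 2.85, 5.99 and 8.81 by Night (−0.83 ± 0.15, adjusted p = 7.69e-05). Nefl changed by −1.17 ± 0.24 and Stmn3 by −0.89 ± 0.18. Rbfox3, the splicing regulator detected as NeuN, held 22.1, 39.0 and 80.2 CPM by Day and 29.2, 46.9 and 77.4 by Night (−0.20 ± 0.17, adjusted p = 0.360). Meg3 held 605, 977 and 2841 CPM by Day and 745, 1338 and 2381 by Night, and 0 Night libraries were above the highest Day library (−0.17 ± 0.20, adjusted p = 0.5). The surface protein gene Thy1 (−0.34 ± 0.16) and Nefm (−0.18 ± 0.20) did not pass.

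**Figure D2:**
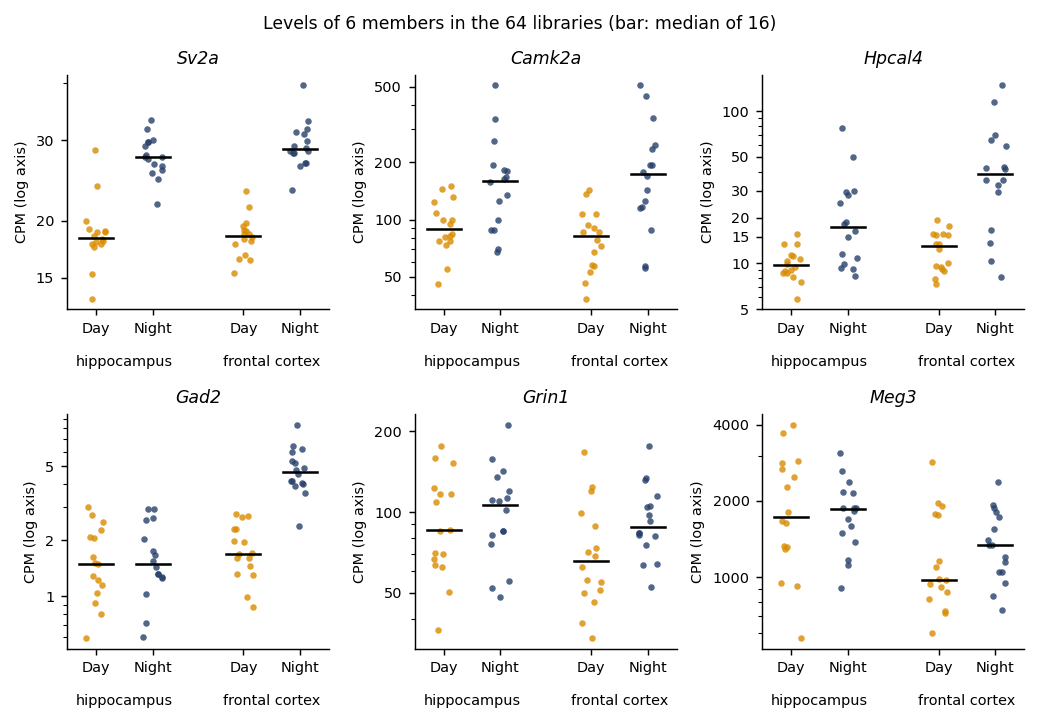
CPM (log axis) of selected members in each of the 64 libraries, by region and phase, with a bar at the median of 16 libraries. Night points of Sv2a lie above all Day points in frontal cortex, those of Gad2 nearly so, and in hippocampus Day and Night points of Gad2 share one range.

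In hippocampus the same comparison called fewer members. By the edgeR test, 10 of 37 were lower by Day and 1 was higher, with 42.2% of all 15527 genes called (18.8% lower and 23.4% higher). The log2 change was negative for 29 members, with a median of −0.17 against 0.02 over all genes. By role, 4 of 13 presynaptic genes, 2 of 12 excitatory genes, 0 of 4 inhibitory genes and 4 of 8 cell body genes were lower. Of the members, 27.0% were lower, against 18.8% of all genes.

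Sv2a again had the lowest p of the members, with 13.5, 18.4 and 28.6 CPM by Day and 21.8, 27.6 and 33.2 by Night (−0.52 ± 0.07, adjusted p = 4.41e-07). Of its 16 Day libraries, 15 were under the Night median. Hpcal4 held 5.86, 9.69 and 15.5 CPM by Day and 8.27, 17.3 and 77.1 by Night (−1.16 ± 0.26, adjusted p = 0.000432), with 9 Night libraries above the highest Day library. Camk2a held 45.5, 89.2 and 151 CPM by Day and 67.4, 161 and 511 by Night (−0.86 ± 0.23, adjusted p = 0.00252), and 9 Night libraries were above the highest Day library here too. Cplx2 held 8.61, 17.4 and 30.3 against 12.7, 29.4 and 97.3 CPM (−0.81 ± 0.23, adjusted p = 0.00436). Nefl held 2.38, 4.71 and 8.25 against 3.24, 8.06 and 18.2 CPM (−0.71 ± 0.20, adjusted p = 0.005), and Nrgn 2.31, 5.62 and 10.7 against 3.44, 8.66 and 18.4 CPM (−0.56 ± 0.20, adjusted p = 0.0248). The ranges of Cplx2, Nefl and Nrgn overlapped, with 8, 7 and 3 Night libraries above the highest Day library. Vamp2 (−0.22 ± 0.06), Cplx1 (−0.71 ± 0.21), Stmn2 (−0.52 ± 0.16) and Stmn3 (−0.47 ± 0.18) also passed. Homer1 was the member higher by Day (0.32 ± 0.12, adjusted p = 0.0349), with 21.8, 35.8 and 63.6 CPM by Day and 21.3, 29.1 and 46.1 by Night. Its call was lost in 8 of 11 other settings of samples, scaling or test (largest adjusted p = 0.338). Without replicate 1, Nefl (−0.63, adjusted p = 0.0530) and Stmn2 (−0.37, adjusted p = 0.111) did not pass, and Nrgn and Stmn3 were each lost in 3 of the 11 settings.

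None of the 4 inhibitory genes passed in hippocampus. Gad1 held 1.39, 3.13 and 5.81 CPM by Day and 2.07, 4.11 and 9.15 by Night (−0.24 ± 0.19, adjusted p = 0.325). Gad2 held 0.595, 1.49 and 3.03 against 0.600, 1.49 and 2.95 CPM (0.02 ± 0.22, adjusted p = 0.964). Slc32a1 held 0.450, 0.905 and 2.48 against 0.610, 1.04 and 1.78 CPM (0.27 ± 0.21, adjusted p = 0.320), and Gabrb2 1.34, 2.64 and 5.12 against 1.58, 2.6 and 4.03 CPM (0.07 ± 0.16, adjusted p = 0.755). Day and Night ranges overlapped over most of their length in all 4. The highest per length of the other roles did so as well: Meg3 held 576, 1734 and 3997 CPM by Day and 905, 1850 and 3089 by Night (0.18 ± 0.21), and Rims1 held 72.8, 133 and 239 against 80.5, 160 and 235 CPM (−0.02 ± 0.17). Dnm1 (−0.15 ± 0.20), Camk2b (−0.17 ± 0.20), Grin1 (−0.10 ± 0.20) and Rbfox3 (0.13 ± 0.20) did not pass.

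The members called in both regions numbered 10: Vamp2, Cplx1, Cplx2, Sv2a, Camk2a, Nrgn, Stmn2, Stmn3, Nefl and Hpcal4. A further 13 were called in frontal cortex without being called in hippocampus, Homer1 in hippocampus without frontal cortex, and 13 in neither. The log2 change was lower in frontal cortex than in hippocampus for 34 of 37 members, the exceptions being Grin2a, Gria1 and Nefm. The difference itself was tested in one fit of all 64 libraries, which called 2 members, with 1.19% of all 16069 genes called and 0.33% in the direction of those 2. Gad2 changed less from Night to Day in hippocampus than in frontal cortex by 1.42 ± 0.27 on the log2 scale (edgeR adjusted p = 0.00204), and Gad1 by 1.08 ± 0.28 (adjusted p = 0.0300). Slc32a1 followed with 0.93 ± 0.27 (adjusted p = 0.0744). The call of Gad1 was lost without replicate 2, 3 or 4 (values of 1.26, 0.87 and 0.85, largest adjusted p = 0.457) and without 5 libraries whose totals stood apart (0.93), and that of Gad2 without replicate 2 (1.28, adjusted p = 0.222) or 4 (1.25, adjusted p = 0.0733).

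The regions also differed in level. Averaged over the phases, 6 members were higher in hippocampus and 4 were lower, with 16.6% of all 16069 genes called (10.4% higher and 6.17% lower). Higher in hippocampus were the receptor genes Grin2a (0.81 ± 0.16, edgeR adjusted p = 8.89e-05) and Gria1 (0.77 ± 0.16, adjusted p = 0.000217), and Camk2b (0.57 ± 0.14), Meg3 (0.53 ± 0.15), Syn2 (0.49 ± 0.13) and Dnm1 (0.49 ± 0.15). Lower in hippocampus were Gad1 (−1.11 ± 0.14, adjusted p = 6.84e-09), Slc32a1 (−0.91 ± 0.14, adjusted p = 7.29e-07), Gad2 (−0.84 ± 0.14, adjusted p = 3.02e-06) and Hpcal4 (−0.68 ± 0.20, adjusted p = 0.0110). The calls of Meg3 and Dnm1 were lost without replicate 2, 3 or 4, those of Syn2 and Camk2b without replicate 2 or 3, and that of Hpcal4 without replicate 1. So 3 of 4 inhibitory genes were lower in hippocampus and 3 of 12 excitatory genes were higher there. The dissection was checked with markers of hippocampal neurons, of which 8 of 8 tested were higher in hippocampus, among them the dentate gyrus genes C1ql2 (2.74 ± 0.32) and Dsp (2.31 ± 0.24), and of cortical neurons, of which 4 of 10 were lower there and 0 higher. The summed cortical markers did not separate the regions, and their ranges overlapped. They held 606 ± 24.4 CPM in frontal cortex and 602 ± 27 in hippocampus by Day, and 588 ± 40.8 and 530 ± 50.1 by Night (SD, n = 16 each). In Night Cogn replicate 1 this sum did not follow the neuronal genes. There it was 32nd of 32 in hippocampus (423 CPM) and 30th in frontal cortex (548 CPM). The excitatory sum of these libraries was 1st in both regions (1544 and 1149 CPM). The cortical sum is therefore a poor check of the dissection.

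The genes of excitatory and of inhibitory synapses were also summed by library. The 13 excitatory genes summed to 621 ± 240 CPM by Day and 764 ± 304 by Night in hippocampus, and to 473 ± 211 and 672 ± 227 CPM in frontal cortex (mean ± SD, n = 16 each). Their ranges overlapped in both regions, from 250 to 1036 CPM by Day and from 337 to 1149 by Night in frontal cortex. The 4 inhibitory genes summed to 8.96 ± 2.80 and 9.46 ± 3.06 CPM in hippocampus, and to 10.7 ± 3.17 and 22.7 ± 6.53 CPM in frontal cortex. In frontal cortex the Day libraries ran from 6.03 to 16 CPM and the Night libraries from 14.2 to 39.4 CPM, so that the ranges barely met. Per 1000 CPM of excitatory transcripts, inhibitory transcripts amounted to 15.5 ± 5.21 by Day and 12.8 ± 2.24 by Night in hippocampus, and to 25.2 ± 9.41 and 35 ± 6.75 in frontal cortex. The median log2 change of the excitatory genes was −0.20 in hippocampus and −0.47 in frontal cortex, and that of the inhibitory genes 0.04 and −1.03. Whether the role groups differed in their change was not tested as such.

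**Figure D3:**
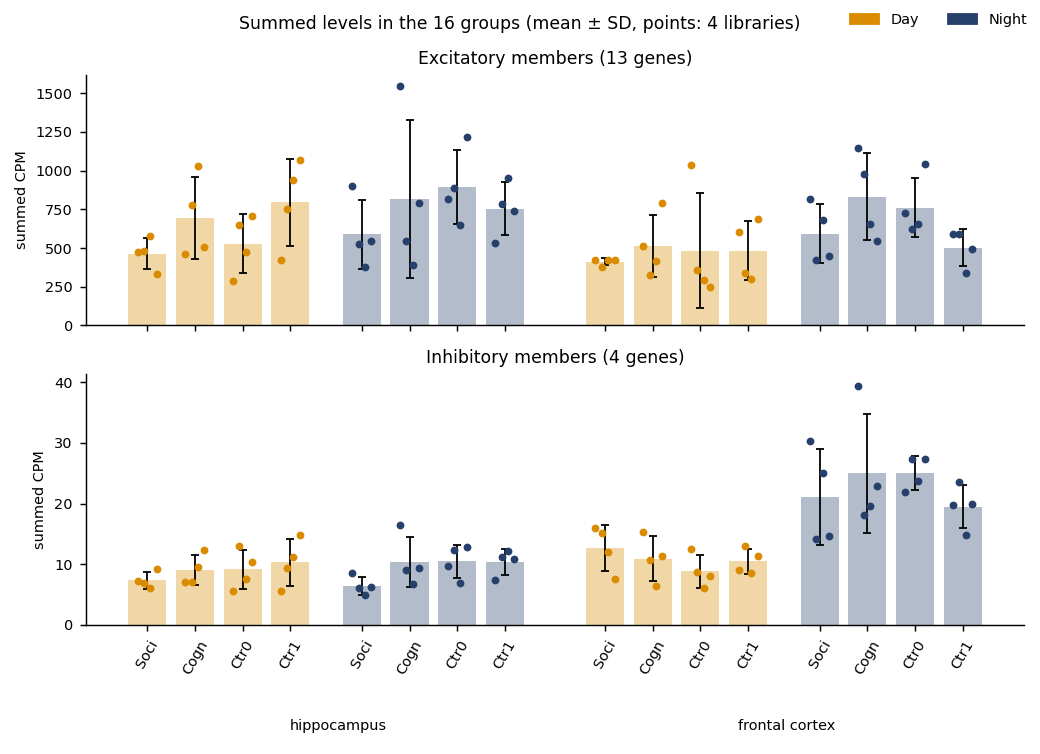
Summed CPM of the 13 excitatory genes and of the 4 inhibitory genes (y axes) in each of the 16 groups, with a point for each library and a bar at the mean of 4. The inhibitory sum of frontal cortex is higher in all 4 Night groups, with means of 19.5 to 25.1 CPM, than in the 4 Day groups, with means of 8.83 to 12.7 CPM.

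Across the 16 groups, the highest mean stood in frontal cortex Night Cogn for 19 of the 38 members and in hippocampus Day Ctr1 for 8. The lowest stood in frontal cortex Day Soci for 15 members and in hippocampus Day Soci for 8. The excitatory sum of frontal cortex had group means of 412 (Soci), 484 (Ctr1), 484 (Ctr0) and 513 (Cogn) CPM by Day and of 503 (Ctr1), 592 (Soci), 762 (Ctr0) and 831 (Cogn) by Night. In hippocampus they were 465 (Soci), 529 (Ctr0), 694 (Cogn) and 796 (Ctr1) CPM by Day and 590 (Soci), 753 (Ctr1), 819 (Cogn) and 893 (Ctr0) by Night. With an SD within groups of 21.2 to 510 CPM (n = 4), neighbours in these orders did not differ beyond their spread. The ratio of highest to lowest group mean was widest for Hpcal4 at 7.69, from 9.15 CPM in hippocampus Day Ctr1 to 70.4 in frontal cortex Night Cogn, followed by Gad1 (5.46), Slc32a1 (4.81) and Gad2 (4.79).

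The group means of Hpcal4 show how uneven the Night groups were. In frontal cortex it averaged 11.3 to 13.6 CPM in the 4 Day groups, against 24.8 ± 14.4 (Ctr1), 30.2 ± 15.1 (Soci), 65.6 ± 57.9 (Ctr0) and 70.4 ± 34.0 (Cogn) by Night (SD, n = 4). Sv2a was far more even, with 17.6 to 19.7 CPM in the Day groups and 26.3 to 33.2 in the Night groups of frontal cortex. Gad2 averaged 1.57 to 2.18 CPM in the Day groups of that region and 3.80 to 5.62 in the Night groups, so for both genes each Night group exceeded each Day group. Meg3 had no such order in frontal cortex, with 1027 to 1383 CPM by Day and 1292 to 1467 by Night.

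The 4 conditions were then compared with the phases averaged. By the edgeR test 0 members were called in either region, as were 0% of all 16826 genes in hippocampus (6.48% at an unadjusted p under 0.05) and 0% of 16238 in frontal cortex (6.74% unadjusted). At an unadjusted p under 0.05, 5 members of hippocampus (Gabrb2, Rims1, Sv2a, Rbfox3 and Syn2) and 1 of frontal cortex (Sv2a) differed among conditions, and the adjusted p was 0.668 and 0.720. Of the 12 pairs of conditions, 0 gave a member past the threshold. In hippocampus the Soci libraries had the lower log2 level for 37 of 38 members against Ctr1 (median −0.54, 18 at an unadjusted p under 0.05), for 37 against Ctr0 (median −0.40, 4 unadjusted) and for 36 against Cogn (median −0.45, 18 unadjusted). Of all genes, 14.6%, 8.93% and 12.3% were at an unadjusted p under 0.05 in these pairs. These contrasts share the Soci libraries, and the members vary together, so the counts are not independent. In frontal cortex the Soci libraries had the lower level for 19 of 37 members against Ctr1 (median −0.00, 0 unadjusted), for 31 against Ctr0 (median −0.15, 1 unadjusted) and for 35 against Cogn (median −0.31, 3 unadjusted), with 8.55%, 10.7% and 3.05% of all genes unadjusted. Without replicate 1, 6 of 38 members were called among the conditions of hippocampus, and 1.97% of all genes. For a day-night change that differs among conditions, edgeR called 0 members in each region, with 0% of all genes called in hippocampus (4.13% unadjusted) and 0.00616% in frontal cortex (3.71% unadjusted). At an unadjusted p under 0.05 these were 0 members in hippocampus and 1 in frontal cortex (Cplx1).

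Libraries differed from one another along shared lines. Within phase and region, the median Pearson correlation between pairs of excitatory genes was 0.805 in hippocampus and 0.753 in frontal cortex, over 32 libraries that share depth and scaling. Between excitatory and inhibitory genes it was 0.528 and 0.373, and among inhibitory genes 0.537 and 0.383. The highest value of any pair was 0.985 in hippocampus (Grin1 and Dnm1) and 0.969 in frontal cortex (Grin2a and Dnm1). Other close pairs, among several of like value, were Camk2a and Cplx2 (0.974 in hippocampus and 0.962 in frontal cortex) and Hpcal4 and Cplx1 (0.946 and 0.905). Gad2 was closest to Stmn2 in hippocampus (0.722) and to Slc32a1 in frontal cortex (0.701). Vamp2 stood furthest apart, with a median correlation to the other members of 0.0904 in hippocampus and 0.101 in frontal cortex, though it reached 0.54 and 0.673 with single members. Slc17a6 had a median of 0.197 in hippocampus. Sv2a, of lowest p in both day-night tests, had medians of 0.533 and 0.353 and reached at most 0.703 and 0.531. Vamp2 was also the most even member between hippocampal libraries, with a coefficient of variation of 15%, against 86.7% for Hpcal4.

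**Figure D4:**
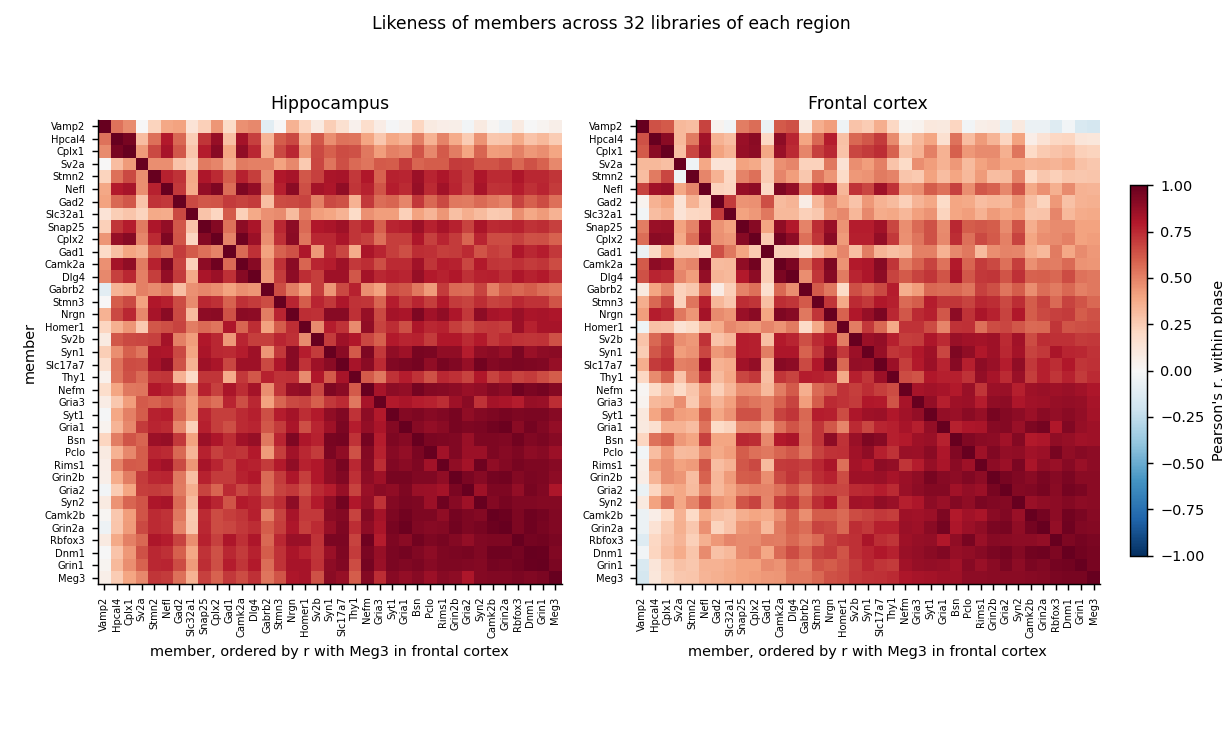
Pearson correlation (colour scale) between members over the 32 libraries of each region after centring on phase. Genes are ordered by their correlation with Meg3 in frontal cortex, which places members alike to Meg3 side by side. The block around Grin1, Dnm1, Rims1 and Meg3 is high in both regions, and the row of Vamp2 is pale for most genes, reaching 0.54 with Hpcal4 in hippocampus and 0.673 with Nefl in frontal cortex.

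Members that followed Meg3 changed less between the phases. In frontal cortex, 15 members had a correlation with Meg3 over 0.8, and 5 of them passed the day-night test (median log2 change −0.324). All 12 with a correlation under 0.5 passed (median −1.23), and these were Snap25, Vamp2, Cplx1, Cplx2, Sv2a, Camk2a, Gad1, Gad2, Slc32a1, Stmn2, Nefl and Hpcal4. In hippocampus 18 members had a correlation over 0.8, of which 2 passed (median −0.137), and 4 of the 5 under 0.5 passed (median −0.523). Across 36 genes the log2 change correlated with the correlation to Meg3 at r = 0.636 (Spearman's rho 0.681) in frontal cortex and at r = 0.363 (rho 0.353) in hippocampus. Both axes come from the same libraries, and genes are not independent replicates, so this is a description.

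**Figure D5:**
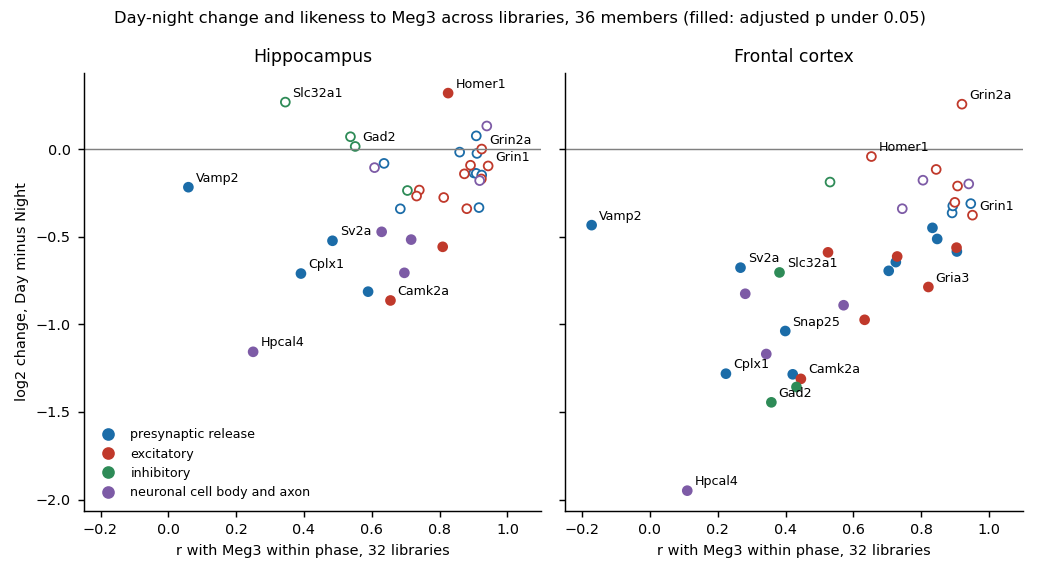
Log2 change from Night to Day (y axis) against the correlation with Meg3 over 32 libraries centred on phase (x axis), with a point for each of 36 members in each region. In frontal cortex the 12 members under a correlation of 0.5 have a median change of −1.23, and the 15 members over 0.8 one of −0.324.

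Libraries of 2 labels carried the highest values of most members in each region. Night Cogn replicate 1 was highest of 32 for 15 members in hippocampus and for 12 in frontal cortex, among them Grin1, Gria2, Bsn, Syn2 and Gad1 in both. Night Ctr0 replicate 4 was highest for 10 and 12 members, among them Hpcal4, Camk2a, Cplx1, Cplx2, Snap25, Vamp2, Nrgn, Stmn3 and Nefl in both. In the 2 libraries of this label, 1 from each region, Hpcal4 reached 77.1 CPM in hippocampus and 148 in frontal cortex, and Camk2a 511 and 510. Night Ctr0 replicate 4 was also 1st of 32 in both regions for the summed markers of astrocytes (2757 and 3470 CPM), of the oligodendrocyte lineage (528 and 420 CPM) and of immature neurons (164 and 193 CPM). Night Cogn replicate 1 had a summed level of microglial markers of 14813 CPM in hippocampus, the lowest of 32, and of 14370 in frontal cortex. Without them, 9 members were called in the day-night test of hippocampus and 22 in that of frontal cortex.

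The lowest values gathered in few libraries as well. Day Ctr0 replicate 1 was lowest for 17 members in hippocampus, and Day Ctr0 replicate 4 for 21 in frontal cortex. In frontal cortex Day Ctr0 replicate 1 was highest for 9 members, including Meg3 (2841 CPM), Dnm1, Rims1 and Camk2b.

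Wider lists of the same pathways were counted beside the members, to be read against all genes, of which 21.3% were lower and 20.6% higher by Day in frontal cortex and 18.8% and 23.4% in hippocampus. Of the wider release machinery, 16 of 23 tested genes were lower by Day and 1 was higher in frontal cortex by the edgeR test. In hippocampus 4 of 23 were lower and 2 higher, near the share of all genes that were lower. Of the wider excitatory list, 16 of 27 were lower in frontal cortex, led by the metabotropic receptor gene Grm3 (−1.45 ± 0.23), and 7 of 28 in hippocampus, led by Cnih2 (−1.07 ± 0.26), an auxiliary protein of AMPA receptors. Of the wider inhibitory list, 15 of 20 were lower in frontal cortex, among them the interneuron factor Dlx1 (−1.68 ± 0.26). In hippocampus 6 of 20 were lower and 1 was higher, the interneuron peptide gene Vip (0.76 ± 0.23). Of the wider neuronal identity list, 22 of 28 were lower in frontal cortex and 8 of 28 in hippocampus, where Scg2 alone was higher.

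Transcripts known to travel into dendrites were counted apart from RNAs held in the nucleus. Of 12 dendrite-localised transcripts, which include the members Camk2a, Nrgn and Dlg4, 8 were lower and 1 higher in frontal cortex and 7 lower and 1 higher in hippocampus. Of all genes 21.3% and 18.8% were lower in these regions. Map2, a microtubule protein of dendrites, changed by −1.43 ± 0.22 in frontal cortex and −0.92 ± 0.22 in hippocampus, and Ddn (dendrin) by −1.38 ± 0.27 and −1.21 ± 0.27. The gene of this list on the other side was the kinase gene Eef2k, which is not a member, at 0.10 ± 0.04 and 0.20 ± 0.04. Of 5 nuclear-retained long RNAs, which include Meg3, 2 were lower in frontal cortex (Rian and Miat) and 1 in hippocampus (Miat), the latter near the 18.8% of all genes that were lower there. The median log2 changes were −0.98 and −0.57 for the dendritic list and −0.48 and 0.00 for the nuclear one.

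Markers of other cells moved with phase beside the neuronal genes, where 20.6% of all genes were higher and 21.3% lower by Day in frontal cortex, and 23.4% and 18.8% in hippocampus. Of 16 microglial markers, 8 in frontal cortex and 11 in hippocampus were higher by Day and 0 were lower. Their sum was 22238 ± 3168 CPM by Day (18571 to 29914) and 18344 ± 3540 by Night (14193 to 25361) in frontal cortex, and 20628 ± 2347 (17593 to 25003) and 17246 ± 1732 (14813 to 20772) in hippocampus. Of 12 astrocyte markers, 9 were lower by Day in each region, and 1 in frontal cortex and 2 in hippocampus were higher. Their sum was 1313 ± 158 CPM by Day (1050 to 1581) and 1678 ± 726 by Night (857 to 3470) in frontal cortex, and 1203 ± 136 (990 to 1530) and 1286 ± 465 (854 to 2757) in hippocampus. Of 12 tested markers of the oligodendrocyte lineage, 7 were lower in frontal cortex and 10 in hippocampus. Of the choroid plexus list 10 of 10 were lower in hippocampus (median −2.61), where the sum was 473 ± 443 CPM by Day (7.88 to 1522) and 2760 ± 1414 by Night (30 to 5162), and 0 of 5 passed in frontal cortex. With scores of 6 other cell types as covariates, 0 members remained past the threshold in hippocampus, where the share of all genes called was 1.28% in place of 42.2% and the median log2 change of the members was 0.40. In frontal cortex 9.82% of all genes were called in place of 41.8%, the median of the members was 0.02, and Sv2a (−0.67), Gad2 (−1.21), Gad1 (−1.07), Hpcal4 (−0.67) and Vamp2 (−0.27) were lower and Grin2a (0.79) was higher. Markers behind these scores shift with phase themselves. In hippocampus, border macrophage markers summed to 322 ± 80.3 CPM by Day and 163 ± 40.9 by Night, and ependymal markers to 4.19 ± 2.42 and 21.4 ± 10. A fit with these scores therefore cannot fully separate phase from them. The part of these cells in the member changes was not tested further.

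Markers of immature neurons were counted in the same way. The list holds Dlx1, which is also on the wider inhibitory list, so the 2 lists are not separate observations. In frontal cortex 11 of 13 tested were lower by Day and 1 was higher, led by Dpysl3 (−1.63 ± 0.16) and Dcx (−2.28 ± 0.22), the microtubule protein of migrating neuroblasts. In hippocampus 5 of 10 were lower and 1 was higher. Of all genes, 21.3% were lower by Day in frontal cortex and 18.8% in hippocampus. Dcx averaged 1.64 CPM by Day and 7.84 by Night in frontal cortex, and 0.845 and 1.43 in hippocampus. For 7 of 13, against 1.19% of all genes, the test of the day-night change in one region against the other passed, among them Dcx (1.57 ± 0.31, edgeR adjusted p = 0.0023), Sp8 (2.45 ± 0.51) and Sp9 (1.5 ± 0.34), transcription factors of neuroblasts bound to become interneurons. The sum of the list, most of it Sox4, ran from 111 to 173 CPM by Day and from 120 to 193 by Night in frontal cortex, and from 108 to 161 and 95.3 to 164 in hippocampus. Dlx5 was at 0 in 18 libraries, Dlx2 in 8 and Sp8 in 3, whereas Dcx was at 0 in none. With the score of this list as a covariate, 1 member remained called in frontal cortex (Sv2a, −0.63, edgeR adjusted p = 0.00105). The share of all genes called was 6.29% in place of 41.8%, and the median member change was −0.30. In that region the mean centred log2 CPM of the list itself nearly split the phases. It ran from −1.22 to −0.0153 by Day and from −0.0386 to 1.26 by Night. A fit with this score therefore cannot fully separate phase from it there. In hippocampus 6 members and 32% of all genes were called, with a median member change of 0.13, and of the 6, Sv2a (−0.48), Hpcal4 (−0.83) and Vamp2 (−0.21) were lower and Homer1 (0.50), Slc32a1 (0.59) and Rbfox3 (0.51) higher. The score of the inhibitory members correlated with that of immature neurons at 0.80 in hippocampus and 0.475 in frontal cortex over 32 libraries each, and the score of the excitatory members at 0.543 and 0.0424. These scores share libraries and scaling, and the part of immature neurons in the Gad1 and Gad2 changes was not tested beyond these values.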

How the data were processed

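Total RNA of 64 microglia preparations was sequenced after ribosomal depletion. Per the submitters' processing notes, reads were mapped with STAR 2.7.3a to GRCm38.p5 and assigned to genes with featureCounts (Subread 2.0.0); the strand setting was not given in the sources used here. The authors deposited raw counts per gene for each library, not scaled by depth or length. Of 49671 genes, 49326 were matched to GENCODE M21 symbols. The members and all gene lists were chosen with earlier results of these data known.

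Counts were scaled by TMM, filtered with filterByExpr and tested in edgeR 4.0.16 by its quasi-likelihood test (limma 3.58.1, R 4.3.3), with Benjamini-Hochberg adjustment over all genes tested and a threshold of 0.05. The phases were set against each other inside each region (16 and 16 libraries). Regions, and whether their day-night changes differed, were tested on all 64 libraries together, and conditions inside each region on the means of 8 groups. A positive log2 change means higher by Day, or higher in hippocampus. The filter was met by 37 members, and by all 38 in the fit of hippocampal conditions. RPKM used the union exon length. Correlations used log2 CPM centred on phase. Members were given library by library if among the 2 of lowest p in either day-night test or the 2 highest per length of their role, and members outside this rule are named with fitted values. On counts simulated for the hippocampal comparison, 76 of 100 genes changed 1.5-fold and 96 of 100 changed 2-fold were called, with 7 of 15446 unchanged genes. Promoter windows came from RefSeq tables for GRCm38.p6. Alternatives included DESeq2 1.42.0. Plots were drawn with matplotlib 3.10.9 in Python 3.11.15.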

Additional observations from a re-analysis of the deposited data

Results flagged for a closer look

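The summed level of the 13 excitatory genes in frontal cortex Day Ctr0 replicate 1 was 1036 CPM, far above the other 3 libraries of its group, which ran from 250 to 357 CPM. In frontal cortex Day Soci, replicate 2 lay apart on the low side at 380 CPM, the others running from 420 to 424 CPM. These were 2 of 80 cases examined for a library far from the rest, 5 sums in each of 16 groups. At 1 in 20, 4 would be expected by chance, though sums over the same libraries are not independent.

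The change from Night to Day differed between hippocampus and frontal cortex for 2 members in a test of the difference itself, Gad1 by 1.08 and Gad2 by 1.42 on the log2 scale. In frontal cortex Gad1 and Gad2 were lower by Day (−1.36 and −1.44), and in hippocampus their changes were −0.24 and 0.02.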

How the results depend on the processing

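Of 855 recomputed values of called members, 612 kept direction and call, 231 kept direction without passing and 12 changed sign. Those 12 all came from adding scores of 6 other cell types: in hippocampus Nefl (0.14), Camk2a (0.15), Cplx2 (0.27), Stmn2 (0.20), Stmn3 (0.15), Cplx1 (0.06) and Nrgn (0.18), and in frontal cortex Syn2 (0.02), Dlg4 (0.05), Bsn (0.04), Syn1 (0.08) and Slc17a7 (0.20). The cause was not tested. Among members not called, 150 of 826 values changed sign, 0 of them past the threshold, and 28 passed in the same direction. With the immature neuron score 6 members were called in hippocampus and 1 in frontal cortex, and with the scores of 6 other cell types 0 and 6. Within single conditions, with fewer libraries, the calls were 1 (Soci), 0 (Cogn), 2 (Ctr0) and 0 (Ctr1) in hippocampus and 1, 8, 2 and 4 in frontal cortex. In the libraries numbered 4 alone they were 0 for Day against Night in hippocampus and 0 for the regions. Leaving out each replicate number in turn gave 7 to 14 calls in hippocampus, 17 to 26 in frontal cortex, 6 to 15 for the regions, 0 to 2 for the difference in day-night change and 0 to 6 for the conditions of hippocampus. Without 5 libraries whose totals stood apart, a choice made after seeing the data as were the single-condition fits, 1 member kept a difference in day-night change. Scaling by library totals alone moved the median log2 change of all genes in hippocampus from 0.02 to −0.14 and called 16 members lower and 0 higher there, 29 lower in frontal cortex, and 1 among the conditions of hippocampus, where 23% of all genes were called in place of 0%. The labels do not say whether equal numbers pair libraries, and the main fits took all libraries as separate. Deviations from group means correlated at −0.47 to 0.262 between same-numbered Day and Night libraries in hippocampus and −0.252 to 0.472 in frontal cortex. Between same-numbered libraries of the 2 regions, of one phase and condition, they correlated at −0.556 to 0.582 (median 0.00372). Of 32 hippocampal libraries, 12 were closest to their own number among the 4 cortical candidates. A shared animal behind these pairs was not tested. With phase, condition and number as a block, 12 of 12 values of called members between regions kept direction and call. With the number as a replicate block, the calls were 10 in hippocampus, 25 in frontal cortex, 12 for the regions, 2 for the difference in day-night change and 0 for the conditions and for their day-night changes in both regions. DESeq2 called 11, 23, 11 and 3 members in the first 4 comparisons. Depth limits Slc17a6, at or under 3 counts in 8 hippocampal and 18 cortical libraries.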
